A study of Homo sapiens with 14 samples.

Results

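Mediator genes were defined as the protein-coding genes of the hg38 annotation whose symbol is MED followed by a digit, together with CCNC, CDK8 and CDK19. They number 33 of the 20033 protein-coding genes on the canonical chromosomes. A peak was assigned to a gene when its centre lay from 2 kb upstream to 1 kb downstream of any annotated transcription start site (TSS) of that gene. In this way 33 untreated peaks (of 20429 in that list) and 34 dTAG-V1 peaks (of 35287) were assigned to Mediator genes. Merged across the lists, these peaks form 40 regions among 40687.

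The data are ZNF143 ChIP-seq, in which chromatin DNA is recovered with an antibody against ZNF143 and sequenced. The cells were HEK293T, an established human embryonic kidney line, in which ZNF143 carries the FKBP12F36V tag, and the labels name a single clone (HEK_CloneZD29). All samples carry the tag, the untreated ones included. dTAG-V1 recruits an E3 ubiquitin ligase to the tag, so that the tagged protein is degraded. The Proteintech antibody, a polyclonal against ZNF143, was used on 4 untreated samples and on 4 samples given 0.5 µM dTAG-V1 for 30 min. The 6 CTCF samples of the series were not analysed here. The authors deposited 1 peak list for each condition, with no value for a single sample, so no comparison below has a replicate error and none was tested. Counts of genes and peaks are given with 95% Wilson intervals, which cover counting error only, beside the same share over all protein-coding genes or all promoter peaks. The authors report that the Proteintech antibody also recognises CTCF, another DNA-binding protein. Whether the antibody recovered ZNF143 or another protein at a given peak cannot be told apart from a peak list.

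Mediator is a large complex that bridges DNA-bound activators and RNA polymerase II. Its core is described in modules. The head and middle contact the polymerase, the tail receives most activators, MED14 joins the modules, and a separable kinase module carries CDK8 or CDK19 with cyclin C. ZNF143 is a zinc-finger activator found mostly at promoters, where it recognises the SBS element. SBS occurs in a shorter form, SBS1, and in a longer form, SBS2, which extends it on the 5′ side by the letters ACTACA.

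The sequences that carry the strongest Mediator peaks are shown first. Each is the strongest SBS match in the highest-scoring untreated peak of the gene, read from hg38 in the 5′ to 3′ direction of the strand on which the matrix matched. Capitals mark the matched positions, and the flanking bases are in lower case.
MED15 (chr22:20507532-20507561, + strand): cgagACTCCATTTCCCACAAGCCCTccttc
MED11 (chr17:4731360-4731389, - strand): cgagcACTACGATTCCCAGGATGCTCagcg
MED27 (chr9:132079917-132079946, - strand): cgcgaACTGCATTTCCCAGAGGTCTTcgga
CDK8 (chr13:26253874-26253903, - strand): cccagACTACAATACCCAGAATGCACaggc
CDK19 (chr6:110815485-110815514, - strand): tcgcgACTTCATTTCCCAGGAGCCTCcgcg
MED24 (chr17:40054475-40054504, - strand): aaggaACTACCATTCCCAGAAGACAGcggg
MED29 (chr19:39391132-39391161, - strand): gccggACTTCATTTCCCCGAAGGCGTcgcg
MED16 (chr19:893199-893228, - strand): accgccCTCCCAGAAGTCTTTGGGaggcgg
MED31 (chr17:6651622-6651651, - strand): gccccGCCCCATATCCCACAGTGCCCcggg
MED26 (chr19:16628263-16628292, - strand): cgcccGCCCCATCTCCCAACCTCCTCagcg
MED16 was matched by the SBS1 matrix and the other genes of this set by the SBS2 matrix. All but MED31 passed the stricter match level of p 1e-06, and MED31 passed p 1e-05. Here p is the chance that a random position with the base frequencies of the genome, not those of promoters, scores as high. It is not the chance that a peak holds a match. At p 1e-05, 54.6% of all untreated promoter peaks held an SBS match.

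Most Mediator genes had a promoter peak in either list. In the untreated list the number was 30 of 33 genes (90.9%, interval 76.4 to 96.9%), where the share of all protein-coding genes was 40.4%. In the dTAG-V1 list it was 28 of 33 (84.8%, interval 69.1 to 93.3%), against 48.1% of all protein-coding genes. A peak in both lists was found for 26 genes (78.8%), against 37.1% of all. Only the untreated list held a peak for 4 genes, MED8, MED10, MED26 and MED12L (12.1%, interval 4.82 to 27.3%, against 3.35% of all). Only the dTAG-V1 list held one for 2 genes, MED21 and MED12 (6.06%, interval 1.68 to 19.6%, against 11.0% of all). These shares are taken over every gene of a set, and 48.5% of all protein-coding genes had no peak in either list. For Mediator genes it was 3.03%. Among genes with an untreated peak, 4 of 30 Mediator genes and 672 of 8097 protein-coding genes lacked a dTAG-V1 peak. Among genes with a dTAG-V1 peak, 2 of 28 and 2210 of 9635 lacked an untreated peak. MED9, a small subunit of the middle module, had no peak in either list, and the nearest untreated peak centre was 60658 bp from any of its start sites. The background includes genes of every expression level, and expression is not part of the files analysed.

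**Figure D1:**
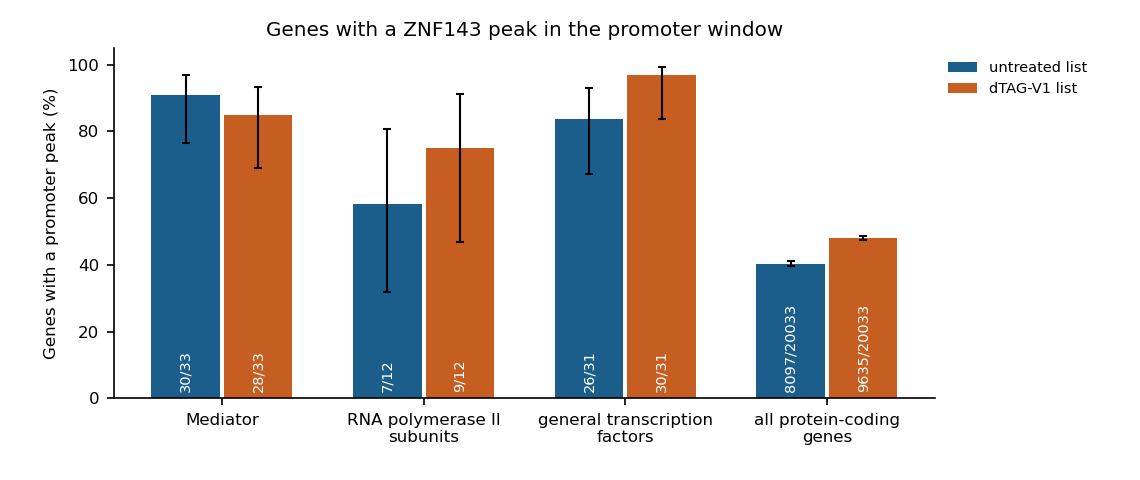
Percent of genes (y axis) with at least 1 peak in the promoter window, for Mediator genes, RNA polymerase II subunits, general transcription factors and all protein-coding genes, in the untreated and dTAG-V1 lists. Bars start at 0, error bars are 95% Wilson intervals, and the fractions inside give genes with a peak over genes in the set. Mediator stands at 90.9% and 84.8%, above the 40.4% and 48.1% of all protein-coding genes.

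Other components of the transcription machinery were counted in the same way. Of the 12 RNA polymerase II subunit genes, 7 had an untreated promoter peak (58.3%, interval 32.0 to 80.7%) and 9 a dTAG-V1 promoter peak (75%). Of 31 general transcription factor genes, 26 had one in the untreated list (83.9%, interval 67.4 to 92.9%) and 30 in the dTAG-V1 list (96.8%). The intervals of Mediator and of each of these sets overlap in both lists. A peak in the untreated list only was found for 0 polymerase subunits (upper limit 24.2%) and 0 general factors (upper limit 11.0%), where Mediator had 4, and the interval of Mediator overlaps both. A peak in the dTAG-V1 list only was found for 2 polymerase subunits (16.7%) and 4 general factors (12.9%), where Mediator had 2.

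Peaks were then ranked by score within their list. The score that MACS2 writes is 10 times the −log10 of the q-value, and a rank percentile near 0 means a score near the top of the list. The fold enrichment is the signal of the peak over its local background. Mediator peaks reached from 0.31% to 92.3% in the untreated list, with a median of 27.7%, against a median of 37.7% over all 7701 promoter peaks. In the dTAG-V1 list they reached from 0.26% to 95.9%, with a median of 21.1%, against 46.8% over all 10296 promoter peaks. Within the top 10% of the untreated list by score lay 12 of the 33 Mediator peaks (36.4%, interval 22.2 to 53.4%), against 20.6% of all promoter peaks. In the dTAG-V1 list it was 13 of 34 (38.2%, interval 23.9 to 55.0%), against 20.8%.

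The untreated Mediator peaks fell into a strong and a weak set. The 12 untreated peaks of the top 10% had fold enrichments from 23.2 for MED25 to 39.5 for MED27. The next highest was MED17 at 12.5, and every other untreated Mediator peak lay at 6.57 or below. Over all untreated promoter peaks the median fold was 4.35 and the upper quartile 12.4. In the dTAG-V1 list the folds were less separated, with 21.4 at MED31, 12.1 at MED22, 8.21 at MED25 and 5.70 at MED20. By module, the strong set held 2 of 7 head genes, 2 of the 4 subunits placed in the head or the tail, 2 of 9 middle genes, 4 of 5 tail genes and 2 of 7 kinase module genes. The scaffold gene MED14 was not among them.

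**Figure D2:**
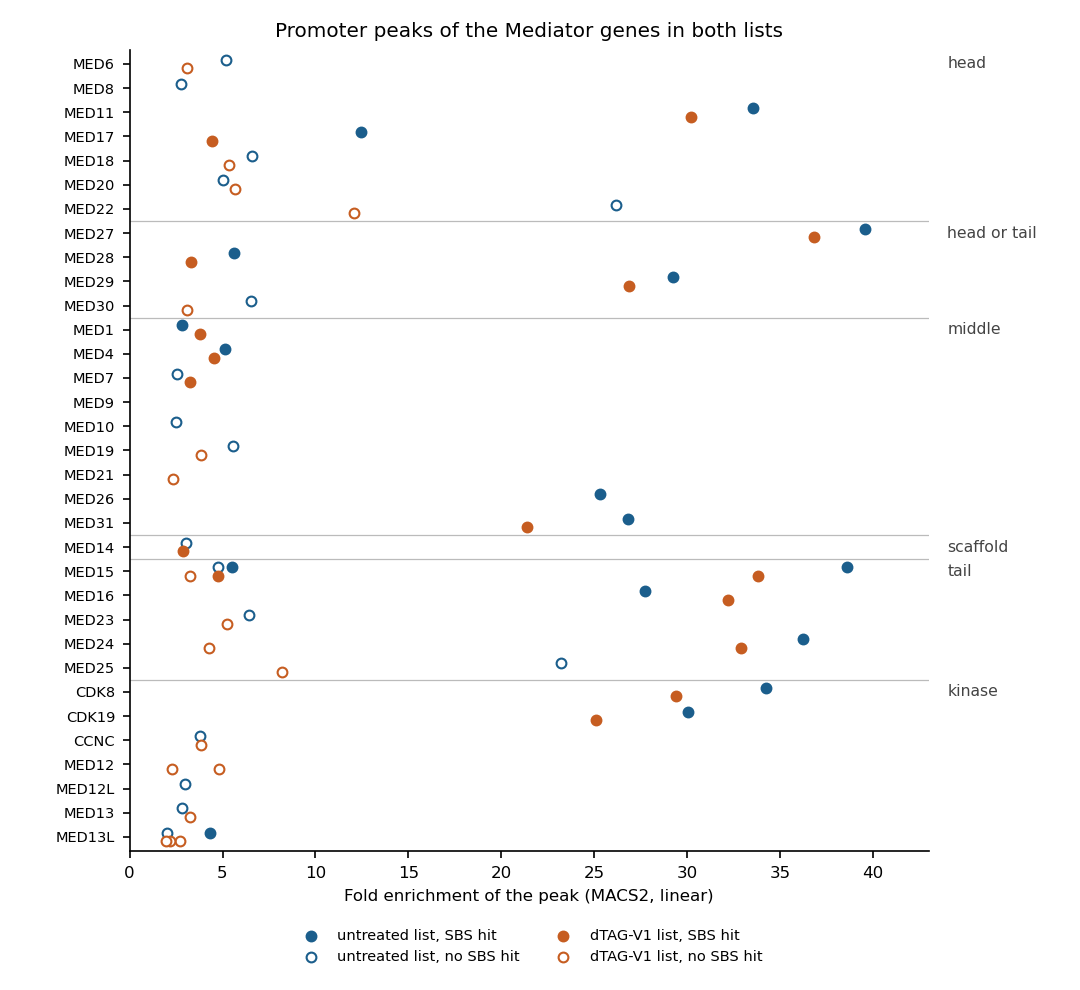
Fold enrichment on a linear scale (x axis) of every promoter peak of each Mediator gene (rows, grouped by module), in the untreated (blue) and dTAG-V1 (orange) lists. Filled circles mark peaks with an SBS match at p 1e-05 and open circles peaks without one. In the untreated list 12 peaks lie at 23.2 or above, MED17 at 12.5 and the others at 6.57 or below. Folds are on the scale of their own list.

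In the tail, the highest Mediator peak of both lists was at MED15, a subunit that binds activators of lipid metabolism among others. The peak at chr22:20507248-20507871 had rank 64 of the untreated list, with a score of 159811 and a fold enrichment of 38.6. Its dTAG-V1 counterpart had rank 92, with a score of 52503 and a fold of 33.8. MED24 followed at chr17:40054081-40054759, with a fold of 36.2 in the untreated and 32.9 in the dTAG-V1 list. MED16 had a peak at chr19:893082-893646 with folds of 27.7 and 32.2. These 3 genes carried SBS matches. MED25, the subunit through which the viral activator VP16 reaches Mediator, had a peak at chr19:49817941-49818359 with folds of 23.2 and 8.21 and rank percentiles of 7.73% and 5.92%. MED23, known as a target of the adenoviral E1A protein and of ELK1, was the weak member of the tail. Its peak at chr6:131627928-131628444 had folds of 6.43 and 5.26 and lies also in the window of ENPP3.

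In the head, MED11 and MED22, which form a heterodimer, were the strong genes. The MED11 peak at chr17:4730880-4731683 had folds of 33.6 untreated and 30.2 with dTAG-V1, and its rank was 243 and 118. The MED22 peak at chr9:133348019-133348663 had folds of 26.2 and 12.1 and lies in the start region shared with RPL7A, a protein of the large ribosomal subunit. MED17, the structural centre of the head, had a peak at chr11:93783968-93784934 with folds of 12.5 and 4.43, and shares its window with TAF1D, a factor of RNA polymerase I. The remaining head genes were weak. The folds were 5.19 and 3.08 at MED6, 6.57 and 5.33 at MED18, and 5.04 and 5.70 at MED20, whose window also holds the start of the ribosome biogenesis gene BYSL. MED8, on which the MED18 and MED20 pair is anchored, had an untreated peak only, at chr1:43389296-43389823, with a fold of 2.79 and a rank percentile of 81.4%.

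Of the subunits placed in the head or the tail, MED27 had the largest fold of all Mediator peaks. Its peak at chr9:132079626-132080192 gave 39.5 untreated and 36.8 with dTAG-V1. MED29, at chr19:39390737-39391535, gave 29.2 and 26.9. This peak covers the canonical TSS of MED29 and lies also in the window of PAF1, a gene of the elongation complex of the same name. MED28 gave 5.62 and 3.31 and MED30 gave 6.51 and 3.10. Both were nearer the bottom of the dTAG-V1 list than of the untreated list, at 32.3% and 54.7% for MED28 and at 24.02% and 56.9% for MED30.

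Of the 9 middle genes, 7 had an untreated peak (77.8%, interval 45.3 to 93.7%, against 40.4% of all protein-coding genes). A dTAG-V1 peak was found for 6 (66.7%, interval 35.4 to 87.9%, against 48.1%). In the untreated list the counts were 7 of 7 for the head, 5 of 5 for the tail and 6 of 7 for the kinase module. In the dTAG-V1 list they were 6 of 7, 5 of 5 and 6 of 7. The intervals of these modules overlap that of the middle in both lists. MED31, a small and conserved subunit, had a peak at chr17:6651133-6651849 with folds of 26.8 and 21.4, in a window shared with C17orf100. MED26, which links Mediator to elongation factors, had a peak at chr19:16628131-16628574 in the untreated list alone, with a fold of 25.3. The peaks of MED1, the nuclear receptor subunit, had folds of 2.82 and 3.77. Those of MED4 had 5.14 and 4.57, those of MED7 had 2.55 and 3.28, and those of MED19 had 5.57 and 3.82. MED10 had an untreated peak of 210 bp with a fold of 2.49, at a rank percentile of 90.8%. MED21, which pairs with MED7 in the hinge of the complex, had a dTAG-V1 peak only, at chr12:27022115-27022394, with a fold of 2.34 and a rank percentile of 80.0%. The scaffold gene MED14 had folds of 3.04 and 2.88.

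In the kinase module, the paralogous kinase genes CDK8 and CDK19 both belonged to the strong set. The CDK8 peak at chr13:26253567-26254184 had folds of 34.2 and 29.4, and the CDK19 peak at chr6:110815301-110815926 had 30.1 and 25.1. Their ranks were 330 and 399 of the untreated list and 263 and 333 of the dTAG-V1 list. CCNC, which encodes their cyclin, had a weak peak at chr6:99568282-99568826, with folds of 3.81 and 3.87. MED13, which connects the kinase module to the core, had folds of 2.80 and 3.25, with its peak centre 688 bp upstream of the nearest start site in the untreated list and 772 bp in the dTAG-V1 list. MED12, the activator of the kinase, had dTAG-V1 peaks only. One of them, at chrX:71117903-71118353, had a fold of 2.26 and lay at 95.9% of the list. The other, at chrX:71129239-71129498, had a fold of 4.81, with its summit in exon 26 of the canonical transcript, and was assigned through an internal start site. The MED12 paralog MED12L had an untreated peak only, with a fold of 2.97 and its centre 1772 bp upstream of a start site. The MED13 paralog MED13L had 2 untreated and 3 dTAG-V1 peaks, with folds from 1.93 to 4.30, all with summits in introns.

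A dTAG-V1 peak overlapped 28 of the 33 untreated Mediator peaks by at least 1 bp (84.8%, interval 69.1 to 93.3%), against 84.2% of all untreated promoter peaks. In the other direction, an untreated peak overlapped 27 of the 34 dTAG-V1 Mediator peaks (79.4%, interval 63.2 to 89.7%), against 62.6% of all dTAG-V1 promoter peaks. The count differs between directions because at MED15 an untreated peak in exon 6 met a dTAG-V1 peak whose centre falls outside the promoter window. Of the 28 overlapping pairs, 23 had a smaller rank percentile in the dTAG-V1 list than in the untreated list (82.1%). Over all 6484 overlapping promoter pairs the share was 73.1%. The untreated list holds 20429 peaks and the dTAG-V1 list 35287, so a percentile can shrink while the rank number grows. The highest MED15 peak, for example, had rank 64 untreated and 92 with dTAG-V1. A larger percentile in the dTAG-V1 list was found for the 5 pairs of MED6, MED17, MED28, MED30 and MED19.

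Summits of the strong pairs lay close together. In the 11 overlapping pairs of the untreated top 10%, the summits of both lists lay from 0 bp (MED29) to 30 bp (MED16) apart, with a median of 2 bp, against a median of 4 bp over all 1580 such promoter pairs. In the 17 weaker pairs the median was 84 bp, against 48 bp over 4904 promoter pairs. The widest was MED7, with 851 bp between its summits, where the overlap covered 65.6% of the untreated peak and 21.97% of the dTAG-V1 peak.

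**Figure D3:**
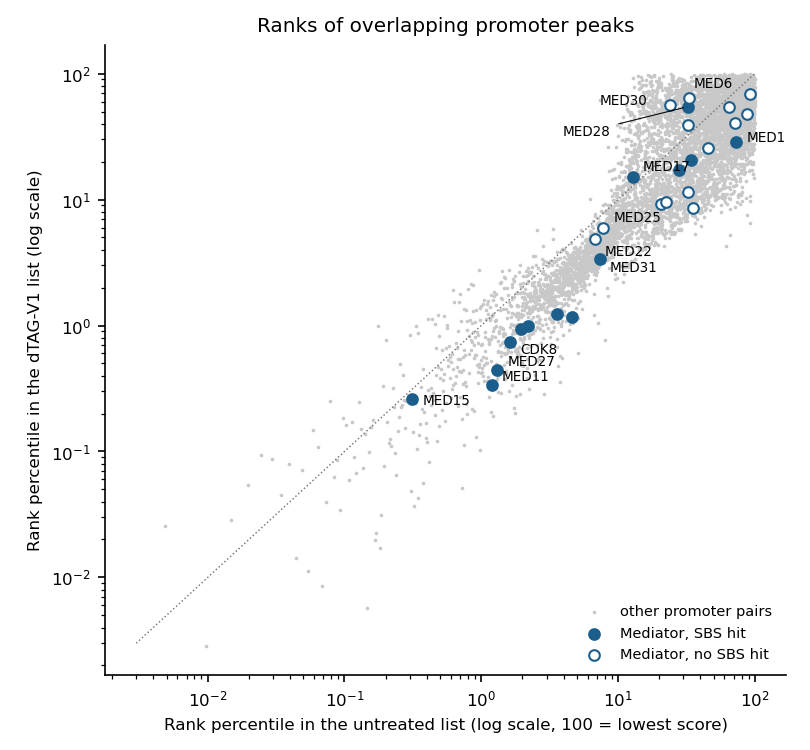
Rank percentile of overlapping promoter peaks in the untreated (x axis) and dTAG-V1 (y axis) lists, both on log scales, where small values are high scores. Grey points are pairs of other genes, circles are Mediator pairs, filled where the untreated peak has an SBS match, and the dotted line marks equal percentiles. The strong Mediator pairs lie below the line, MED15 at 0.31% and 0.26%, while MED17, MED28, MED30 and MED6 lie above it. The lists differ in length, so the line does not mark equal rank numbers.

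MED26 stood apart from the other strong genes. Its untreated peak had rank 1676 and a score of 11921, and no dTAG-V1 peak overlapped it. The nearest dTAG-V1 peaks on either side were 54959 bp and 31394 bp away. Among the 1587 untreated promoter peaks of the top 10%, 7 had no overlapping dTAG-V1 peak (0.441%), and only 1 of them had a higher score than the MED26 peak. Of the 12 Mediator peaks among them, MED26 was the only one without an overlap. The names of the peaks in the dTAG-V1 list are numbered up to 36056, and 769 numbers are absent. None of the absent numbers falls between the neighbours of this site, and why numbers are absent was not tested. With 1 list for each condition, a difference in calling at this site and a difference in signal cannot be told apart. The peak lies also in the window of an unnamed protein-coding gene of the annotation.

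SBS matches were counted at p 1e-05 with matrices learned from the peaks on odd-numbered autosomes. Of the untreated Mediator peaks, 16 of 33 held at least 1 (48.5%, interval 32.5 to 64.8%), against 54.6% of all untreated promoter peaks. Of the dTAG-V1 Mediator peaks, 16 of 34 did (47.1%, interval 31.5 to 63.3%), against 40.4% of all dTAG-V1 promoter peaks. At p 1e-06 the counts were 11 and 10, where 28.8% of all untreated and 19.0% of all dTAG-V1 promoter peaks held a match. Both intervals at p 1e-05 include the share over all promoter peaks.

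Median ranks were compared between peaks with and without an SBS match, with no test. Untreated Mediator peaks with a match had a median rank percentile of 5.96% (n = 16), and those without one had 35.1% (n = 17). Over all untreated promoter peaks these medians were 19.0% and 59.4%. Of the 12 strong untreated peaks, 10 held a match at p 1e-05 and 9 at p 1e-06. The shares of all promoter peaks in the top 10% were 95.8% and 84.0%. The matrices were learned from these lists, so that match and rank are not independent, and wider peaks offer more positions to match. The median width of the Mediator peaks was 625 bp with a match and 506 bp without.

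The strong peaks without a match at p 1e-05 were those of MED22 and MED25. Both held a weaker SBS1 match at p 5e-05, and the matches nearest their summits are shown for comparison with the set above.
MED25 (chr19:49818222-49818251, + strand): gcagcaTTCCCAGCAGCCCTAAACcgcccg
MED22 (chr9:133348045-133348074, + strand): ctctctTCCCCGCCGCGCCGCGGTccgaaa
The MED25 match lay 14 bp from the summit and contains the letters TTCCCA. The MED22 match lay 156 bp from the summit. At p 5e-05 79.4% of all untreated promoter peaks held an SBS match.

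The strongest SBS matches of the strong peaks were close to both the summit and the start site. In the 10 strong peaks with a match they lay from 4 bp (MED15) to 110 bp (MED16) from the summit. Relative to the canonical TSS they lay between 241 bp upstream (CDK8) and 26 bp upstream (MED16). All 12 strong summits were upstream of the canonical TSS, from 10 bp (MED31) to 276 bp (CDK8). Of the 16 untreated peaks with an SBS match, 13 had one within 50 bp of the summit (81.2%), against 68.0% of the 4207 untreated promoter peaks with a match. The strongest match of a peak was on the strand of the gene in 9 of the 16 and on the opposite strand in 7. For the side of the summit and for the strand, no share over all promoter peaks is given here.

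**Figure D4:**
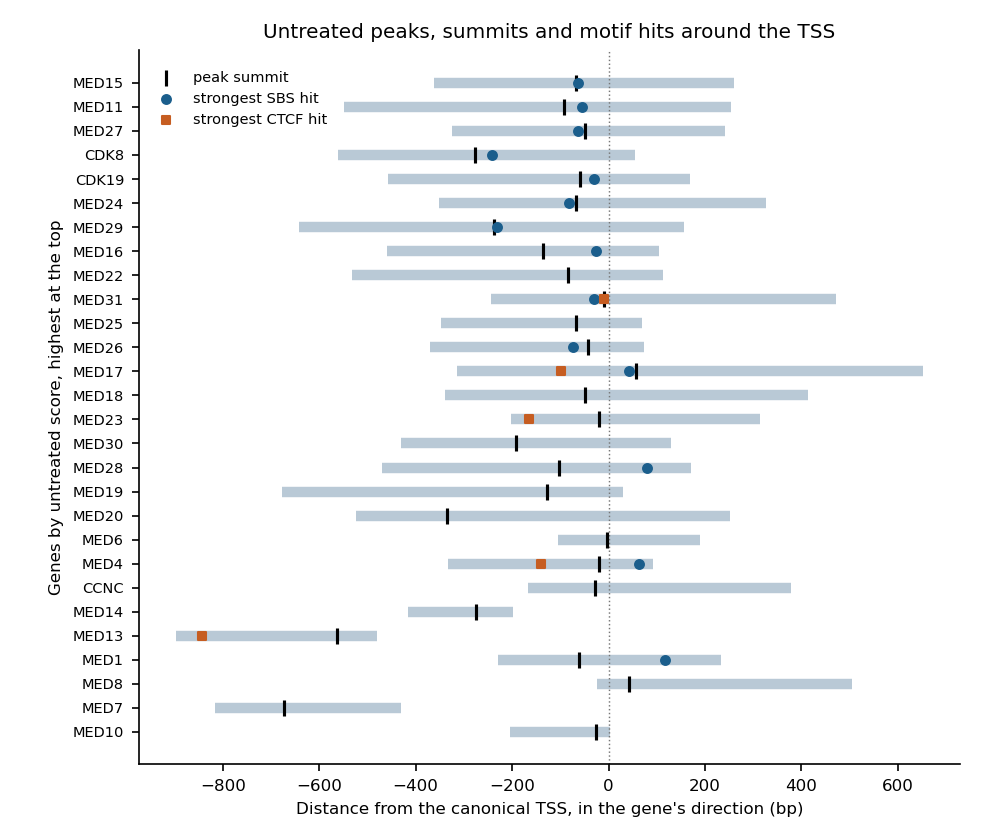
Position relative to the canonical TSS in bp (x axis, negative upstream in the direction of the gene) of the highest-scoring untreated peak of each of the 28 Mediator genes with a summit within 1000 bp of that site, ordered by score from the top. Bars span the peak, ticks mark the summit, circles the strongest SBS match and squares the strongest CTCF match at p 1e-05. In the strong peaks at the top the SBS match lies from 4 to 110 bp from the summit, and MED22 and MED25 have none.

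Among the weaker peaks, the match at MED17 resembled those of the strong set in match level and in distance to the summit. It was matched by the SBS1 matrix, as only MED16 was in the strong set. The matches at MED28 and MED1 were further from their summits.
MED17 (chr11:93784311-93784340, - strand): gcaactTTCCCAGAACGCACCGCAagctcc
MED28 (chr4:17614707-17614736, - strand): aagcttGGCCCGGAAGGCCCGGCGgggcct
MED1 (chr17:39451131-39451160, - strand): ccctgcGTCCCGGGATCCCGAGCCaacttg
The MED17 match passed p 1e-06 and lay 13 bp from the untreated summit. The others passed p 1e-05 and lay 183 bp (MED28) and 179 bp (MED1) away. MED7 and MED14 held an SBS match in the dTAG-V1 peak, which is wider, and none in the untreated peak. Conversely, the untreated peak of MED13L with a match, in intron 17, has no dTAG-V1 counterpart.

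CTCF matches were found in 7 of 33 untreated Mediator peaks (21.2%, interval 10.7 to 37.8%), against 21.7% of all untreated promoter peaks. In the dTAG-V1 list it was 11 of 34 (32.4%, interval 19.1 to 49.2%), against 27.5%. Of the 12 strong untreated peaks, 1 held a match at p 1e-05, that of MED31 (8.33%, interval 1.49 to 35.4%). Among all 1587 untreated promoter peaks in the same top share of the list by score, 20.4% held one. The interval includes this share. Chosen matches of tail and kinase module genes are shown, those of MED15, MED24 and MED12 at internal or alternative start sites and that of MED13 844 bp upstream of its canonical TSS.
MED15, KLHL22 promoter (chr22:20496628-20496657, - strand): ccccgaTATCCCGCAGGGGGCGCGCtacgg
MED15, exon 6 (chr22:20564455-20564484, + strand): ctgcaGCTCCAGCAGGTGGCGCTGcagcag
MED15, intron 8 (chr22:20571662-20571691, - strand): ccccatCCCCCAGCAGGGGGCGCTGctatt
MED24, intron 16 (chr17:40027183-40027212, - strand): tcacatTGACCACTAGGTGGCAGCAttgcc
MED12, exon 26 (chrX:71129343-71129372, - strand): gggaggCAGCCAGCAGGTGGCGGTCgcagg
MED13 (chr17:62066108-62066137, - strand): ccggggCACCCAGCAGATGGCGCTAtgtta
All of them passed p 1e-06. The first lay at the untreated summit (0 bp) of a peak with folds of 5.51 and 4.76, assigned through a distal start site of MED15, with its summit 10968 bp upstream of the canonical one. This peak also held 3 SBS matches in each list. The strongest was an SBS1 match at p 1e-06, 123 bp from the untreated summit. The exon 6 match lay 12 bp from the untreated summit, in a peak with a fold of 4.76. The peaks in intron 8 of MED15, in intron 16 of MED24 and in exon 26 of MED12 were called in the dTAG-V1 list only, with the match 7, 9 and 29 bp from the summit. At MED13 the match lay 281 bp from the untreated summit and 0 bp from the dTAG-V1 summit. CTCF matches at p 1e-06 that are not shown lay 99 bp (MED17), 139 bp (MED4) and 165 bp (MED23) upstream of the canonical TSS. From the untreated summits they were 155 bp (MED17), 119 bp (MED4) and 146 bp (MED23) away. Of the 7 Mediator peaks with no untreated overlap, 3 had a CTCF match (interval 15.8 to 74.95%, against 30.7% of all such promoter peaks) and 0 an SBS match (interval 0 to 35.4%, against 16.2%). Of the 5 with no dTAG-V1 overlap, 0 had a CTCF match (interval 0 to 43.4%, against 11.5% of all such promoter peaks) and 2 an SBS match (interval 11.8 to 76.9%, against 54.2%). Each interval includes the share over all promoter peaks.

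Many Mediator peaks lie in windows of more than 1 protein-coding gene, so that they cannot be assigned to Mediator alone. In the untreated list this applied to 12 of 33 peaks (36.4%, interval 22.2 to 53.4%), against 19.0% of all promoter peaks. In the dTAG-V1 list it applied to 10 of 34 (29.4%, interval 16.8 to 46.2%), against 16.1%. Within the strong set the partners were RPL7A at MED22, PAF1 at MED29, C17orf100 at MED31, an unnamed gene at MED26 and FUZ, a planar polarity effector, at MED25. The weaker ones include TAF1D, BYSL, ENPP3 and KLHL22, as above. TMX2 shares the window of MED19.

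The core promoter, from 250 bp upstream to 50 bp downstream of the canonical TSS, was searched without regard to peaks. An SBS match at p 1e-05 was present at 13 of 33 Mediator genes (39.4%, interval 24.7 to 56.3%), against 39.2% of all protein-coding genes. A CTCF match was present at 6 (18.2%), against 14.4%. Of the letters of the SBS, ACTACA occurred on either strand at 5 Mediator genes (15.2%, against 8.30%) and TTCCCA at 11 (33.3%, interval 19.8 to 50.4%, against 22.2%). The ETS letters ACTTCCGG were found at 7 Mediator genes (21.2%, interval 10.7 to 37.8%), against 6.14% of all promoters. These genes were MED8, MED11, MED17, MED18, MED29, MED7 and MED15. The YY1 letters AAGATGGC were found at 5, MED18, MED29, MED1, MED16 and MED25 (15.2%, interval 6.65 to 30.9%, against 4.04%). The NRF1 letters GCATGCGC were found at MED18 and CDK19 (6.06%, against 4.27%) and the NFY letters CCAATCAG at MED8 alone (3.03%, against 5.28%). Letters were also counted in the 40 merged Mediator regions and, for comparison, in all 11499 merged promoter regions of both lists, whose median widths were 617 and 524 bp. The ETS letters occurred in 7 Mediator regions (17.5%, interval 8.75 to 32.0%, against 8.03% of all) and the YY1 letters in 6 (15%, interval 7.06 to 29.1%, against 6.35%). The NRF1 letters occurred in 2 (against 4.30%), the NFY letters in 0 (against 4.11%), ACTACA in 10 (25%, against 21.9%) and TTCCCA in 23 (57.5%, interval 42.2 to 71.5%, against 45.0%). A match of letters is a description of the sequence and not a measured binding site.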

How the data were processed

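The authors mapped reads to hg38 with bwa mem, kept proper pairs above a mapping quality limit, marked duplicates with Picard and called narrow peaks with MACS2, with no control library named. The deposited lists pool the replicates of a condition and name the untreated peaks DMSO, whereas labels and methods describe no treatment. Whether the replicate filter of the methods was applied to them is not given in the sources used here. Their score is the integer score of MACS2, the fold enrichment is a ratio by the authors, and the deposited −log10 q-values come from the same call. The −log10 p-values were not used. No column belongs to a single sample, so 0 such columns were left unused. The authors' read depth is unknown here, and a longer list can follow from depth alone.

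Start sites were taken from GENCODE release 44, and the check that every peak lies within hg38 chromosomes passed. Tables were handled with pandas 2.3.3 and numpy 2.4.6 under Python 3.11.15, and sequences were read with pysam 0.24.0. Overlaps needed 1 bp. Matrices for CTCF, SBS1 and SBS2 were learned from merged peaks on odd-numbered autosomes in 10 iterations, with a pseudocount of 0.8 and sites at p 1e-06. The procedures were tested on simulated data. All 33 Mediator genes are named, and matches are shown for the strong peaks and for chosen others. Members, lists and settings were chosen with earlier results of these data known, and the comparisons of ranks and summits between overlapping peaks, the shares over peaks of 1 list only and the display of matches at p 5e-05 were added after the values had been seen. The alternatives were the canonical TSS alone, a window of 1 kb on both sides, placement by summit, a −log10 q of at least 5, a reciprocal overlap of 50%, match levels of p 5e-05 and 1e-06, matches within 100 bp of the summit, matrices from even-numbered autosomes, ranking by fold and the highest peak of each gene. Some of the genes that share a window with a Mediator gene are not reported here.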

Additional observations from a re-analysis of the deposited data

How the results depend on the processing

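Of the 46 alternative values, 40 stayed within 1.5 times the value reported, among them all counts of genes and of overlapping peaks. The 6 that moved further concern motif matches and 1 median. At p 5e-05 an SBS match was found in 28 of 33 untreated and 28 of 34 dTAG-V1 Mediator peaks, against 79.4% and 67.7% of all promoter peaks. A CTCF match at p 5e-05 was found in 12 of 33 and 18 of 34, against 43.9% and 47.3%. At p 1e-06 an SBS match was found in 10 dTAG-V1 Mediator peaks, against 19.0% of all dTAG-V1 promoter peaks. With only the highest-scoring peak of each gene, the median rank percentile of the dTAG-V1 peaks was 13.3%. No paired analysis was possible because the lists pool the replicates, and for the same reason no replicate was left out. The depth of the lists is unknown, which limits what an absent peak can show. With a −log10 q of at least 5, the Mediator genes with a peak in only 1 list numbered 3 of 33 for the untreated and 3 of 33 for the dTAG-V1 list. The shares of all protein-coding genes at this setting were 4.01% and 9.88%.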

Other observations

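The presence of a peak was also set against the SBS match of the core promoter. Of the 13 Mediator genes with an SBS match there, 12 had an untreated promoter peak, and of the 20 without one 18 did. Over all protein-coding genes these shares were 47.5% of 7858 and 35.9% of 12175. The core promoters of the Mediator genes had a median GC content of 60%, with a range from 47 to 81%, where all protein-coding genes had a median of 63.7%.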
